A study of Mus musculus with 16 samples.

Results

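Genomic regions with an H3K27ac peak at both embryonic stages of the mouse gut epithelium and in neither adult cell type are described here. They numbered 4035 of the 79482 regions into which the peaks of all 8 libraries merged. This acetyl mark on the tail of histone H3 was mapped by chromatin immunoprecipitation and sequencing (ChIP-seq). Overlapping or touching peaks of any library were merged into a region, and a library had the region when at least 1 bp of its peaks lay in it. A region was embryo-only when both E14.5 libraries and both E12.5 libraries had it and no library of Lgr5-positive intestinal stem cells (ISC) or of enterocytes had it. These regions were chosen by the presence and absence of the authors' peaks, so their absence from the adult libraries is not a finding.

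The study compared small-intestinal epithelium of mouse embryos at E14.5 and at E12.5 (days of embryonic development) with ISC and enterocytes from mice of postnatal day 60, with 2 libraries in each of the 4 groups. The mice of all groups had a mixed C57BL/6 CD1 background. The sort for embryonic cells, and that for enterocytes, kept cells with EpCAM, an epithelial surface protein, and left out those with CD31 (endothelium) or CD45 (leukocytes). This gate holds no marker that parts absorptive cells from other epithelial types. ISC were sorted for high GFP, and the adult animals, for both cell types, were males carrying Lgr5EGFP-Cre-ERT, a reporter and inducible recombinase at the stem-cell gene Lgr5. The sex and genotype of the embryos and any pooling of animals are not given in the labels. The labels call each pair biological duplicates, and p-values measure only the spread between these libraries.

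H3K27ac is deposited by the acetyltransferases p300 and CBP on nucleosomes beside active promoters and enhancers, and it is removed when such elements are shut down. Enhancers are more particular to a cell type and stage than promoters, so changes in H3K27ac are used to follow which regulatory elements a tissue uses as it matures. Between the earlier and the later embryonic stage the gut tube turns from a pseudostratified epithelium towards one that forms villi, while crypts with Lgr5-positive stem cells take their adult form only after birth.

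Sequencing depth ran between 34.6 and 54.6 M tags per ChIP library, with 35614 to 52510 peaks called by the authors in each. Total covered length ranged from 38.8 Mb in the enterocyte libraries to 76.1 Mb in ISC replicate 2, and among the embryonic libraries from 43.6 Mb in E12.5 replicate 1 to 65.1 Mb in E14.5 replicate 1. All positions are on the mouse build mm9. The gene table at hand is on GRCm38.p6, so regions are named by position and not by gene, and the labelled cell types were not checked against marker genes. The lists give called peaks and no tags outside them, so a missing peak means acetylation under the caller's threshold and not its absence.

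Of the 23115 regions that all 4 embryonic libraries had, 4035 (17.5%) had no adult peak. A peak in all 4 adult libraries was the most common outcome, with 12282 regions (53.1%). A further 1622 regions (7.02%) had a peak in a single adult library, 3667 (15.9%) in 2 and 1509 (6.53%) in 3. Over all 79482 regions the rule took 5.08%, and nothing is read from that share.

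**Figure D1:**
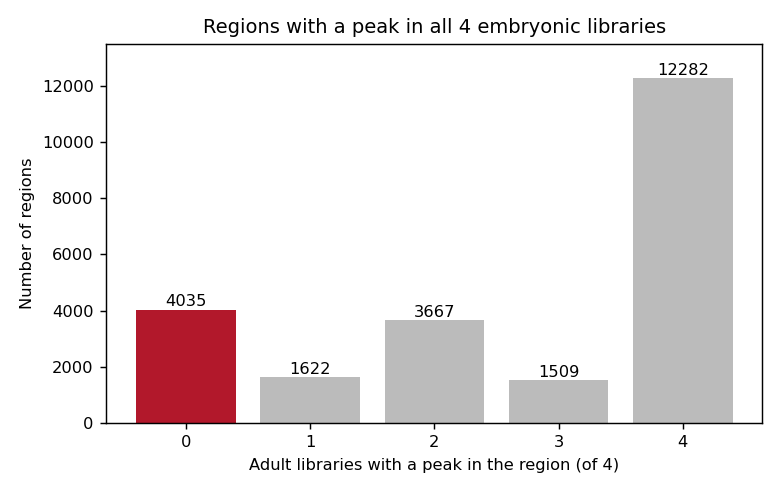
Number of regions (y axis) with a peak in all 4 embryonic libraries, by the number of adult libraries that also had a peak (x axis, 0 to 4). The 4035 embryo-only regions are the red bar, and 12282 regions had a peak in all 4 adult libraries.

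The edge of the set rested mostly on ISC replicate 2. Among the 1622 regions kept out by a single adult library, that library was ISC replicate 2 for 1515, ISC replicate 1 for 26, enterocyte replicate 1 for 53 and enterocyte replicate 2 for 28. The peak of ISC replicate 2 in those 1515 regions had a median length of 468 bp (interquartile range 308 to 712.5 bp). On the embryonic side, 1059 regions without an adult peak were missed by E14.5 replicate 2 alone, 240 by E14.5 replicate 1 alone, 1201 by E12.5 replicate 1 alone and 115 by E12.5 replicate 2 alone. The library with the greatest covered length and the embryonic libraries with the smaller covered length of their stage thus set most of the near misses.

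The members just inside the rule were 2 short regions. One on chromosome 15 from 9365817 to 9366141 had 261 and 266 bp of peak in the E14.5 libraries and 207 and 245 bp in the E12.5 libraries, and lay 0.132 kb from an adult peak. The other, on chromosome 19 from 10398022 to 10398437, had 367 and 298 bp in the E14.5 libraries and 207 and 302 bp in the E12.5 libraries. Just outside stood long regions that a small adult peak kept out. On chromosome 7 from 119636659 to 119647964, peaks covered 10.1 and 9.64 kb in the E14.5 libraries and 10.4 and 10.8 kb in the E12.5 libraries, and 0.226 kb in ISC replicate 2. On chromosome 4 from 100576347 to 100586208 they covered 9.41 and 7.66 kb in the E14.5 libraries and 8.11 and 9.51 kb in the E12.5 libraries, and 1.04 kb in ISC replicate 2.

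Embryo-only regions were of middling length among the classes compared. Their median was 1454 bp (interquartile range 934.5 to 2165 bp, lowest 308 and highest 28203 bp), against 2871 bp for regions in all 8 libraries and 1976 bp for regions that the embryonic and ISC libraries had and the enterocyte libraries lacked. Regions confined to a single embryonic stage were shorter, with a median of 550 bp for E14.5 and 642 bp for E12.5. Adult-only regions, which all 4 adult libraries and no embryonic library had, had a median of 1763 bp. Over all regions the median was 754 bp. A length of at least 5 kb was reached by 98 embryo-only regions (2.43%), against 2414 regions in all 8 libraries (19.7%), and 10 embryo-only regions were at least 10 kb long. No more than 1 peak in each library made up 1771 embryo-only regions (43.9%). Each embryonic library covered at least 50% of the region in 1690 of them (41.9%), while 384 (9.52%) had a library covering under 20%. Regions shared by more libraries also merge more peaks, which by itself lengthens them, and the part of this in the differences was not tested.

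Within their own lists the embryo-only regions stood near the middle. The authors' peak caller gives each peak a −log10 q, and a region was ranked by its best peak. The median embryo-only region stood at the 51.3rd and 43.4th percentile of the lists of E14.5 replicates 1 and 2 and at the 48.6th and 60.5th percentile of those of E12.5 replicates 1 and 2. Over all regions that each library had, the median was 56.5 and 58.2 in the E14.5 lists and 58.5 and 54.9 in the E12.5 lists. Regions that the embryonic and ISC libraries had and the enterocyte libraries lacked stood at 67.3 and 63.3 and at 57.5 and 66.4. Regions in all 8 libraries stood at the 87.1st and 86.2nd percentile in the E14.5 lists and at the 82.9th and 85.7th in the E12.5 lists. The authors' fold enrichment over local background had a median of 5.75 and 4.67 for the embryo-only regions in the E14.5 libraries and of 4.96 and 5.80 in the E12.5 libraries. In regions present in all 8 libraries it was 17.6 and 14.4 in the E14.5 libraries and 9.64 and 11.6 in the E12.5 libraries.

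Few embryo-only regions were strong throughout. At or above the 75th percentile in all 4 embryonic lists stood 96 of them (2.38%), against 7545 of the regions in all 8 libraries (61.4%). Below the 25th percentile in all 4 stood 24 (0.595%).

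The 4 embryonic libraries placed their strongest point in an embryo-only region close together. The summits of the best peaks lay a median of 88 bp apart between the E14.5 replicates and 108 bp apart between the E12.5 replicates. Across stages the median lay between 112 and 118 bp in the 4 pairs of libraries, close to the distance between the E12.5 replicates. In 65.4 to 67.2% of the regions, summits of an E14.5 and an E12.5 library were within 200 bp of each other. For regions in all 8 libraries these distances were 49 bp, 73 bp and 66 to 74 bp.

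The longest embryo-only region lay near the end of chromosome 7, from 149737366 to 149765568. Its peaks covered 27.5 and 27.1 kb in the E14.5 libraries and 27 and 28.2 kb in the E12.5 libraries, so every embryonic library covered nearly the whole of it. It stood at the 97.1st to 99.9th percentile of the embryonic lists, and the nearest adult peak lay 15.0 kb away. No other member with so much acetylated length in all 4 libraries came near it, since the next had 10.1 kb in its least covering library.

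That next region, on chromosome 6 from 49168141 to 49179161, had 10.7 and 10.1 kb in the E14.5 libraries and 10.7 and 11 kb in the E12.5 libraries. An adult peak lay only 3.23 kb from it. The third, on chromosome 11 from 18912358 to 18924507, had 8.66 and 8.30 kb in the E14.5 libraries and 11.2 and 11.9 kb in the E12.5 libraries. Its 2 stages did not overlap, it lay 258 kb from any adult peak, and limma gave a log2 change of −0.67 ± 0.16 (SE, n = 2 each, adjusted p = 0.0531), which missed the threshold of 0.05 (without scaling, −0.43 and 0.0333, which passed).

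The region on chromosome 10 from 44200092 to 44210794 had 10.6 and 10.7 kb in the E14.5 libraries and 8.19 and 10.6 kb in the E12.5 libraries, with an adult peak 1.74 kb away. A region on chromosome 12 from 25808878 to 25820053 had 9.74 and 7.95 kb in the E14.5 libraries and 9.78 and 11 kb in the E12.5 libraries. In each of these, libraries of the same stage differed from each other by more than 1 kb at one stage or at both. The 8 longest were completed by regions on chromosome 11 (95861381 to 95870464), chromosome 8 (34994188 to 35003329) and chromosome 12 (28020789 to 28029569).

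These last 3 had between 7.47 and 8.50 kb in the E14.5 libraries and between 8.00 and 9.08 kb in the E12.5 libraries. The one on chromosome 11 was the strongest of them, at the 96.3rd to 99.4th percentile of the 4 lists, and the one on chromosome 8 the weakest, at the 75.6th to 82.6th. None of the 8 longest regions passed the limma threshold between the stages, with adjusted p from 0.0531 to 0.718. Without E12.5 replicate 2 all of them but the one on chromosome 10 passed it as lower at E14.5, among them the longest (log2 change −0.46, limma adjusted p = 0.034).

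**Figure D2:**
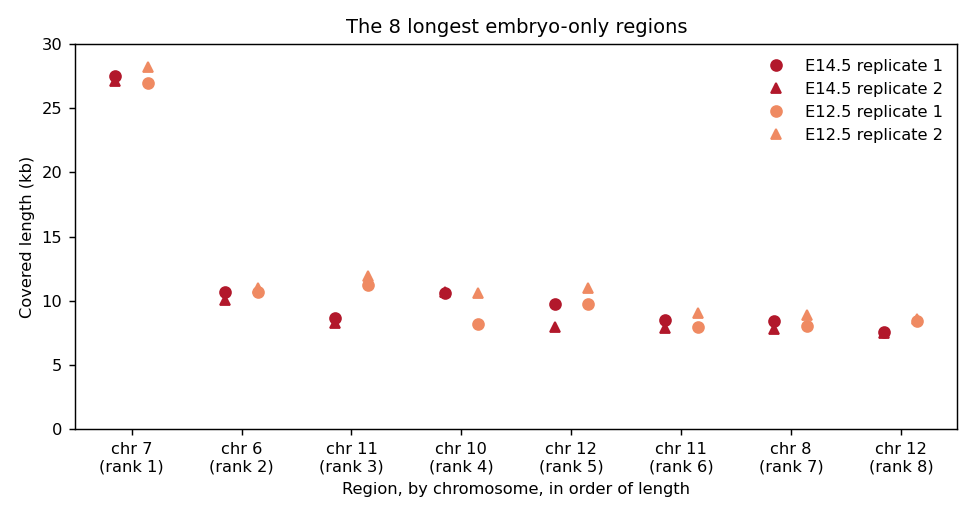
Covered length in kb (y axis) of the 8 longest embryo-only regions (x axis, by chromosome and rank of length) in each embryonic library, with E14.5 in dark red left of E12.5 in orange. The region on chromosome 7 stands at 27 to 28.2 kb and the others between 7.47 and 11.9 kb.

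The rule treats both embryonic stages alike, so the members' share of each library's covered length could be compared between them. As a set, embryo-only regions took a smaller share at E14.5 than at E12.5 in these libraries. They took up 7.68 and 7.40% of the covered length of the E14.5 libraries and 10.8 and 10.4% of that of the E12.5 libraries. The means were 7.54 ± 0.197% at E14.5 and 10.6 ± 0.316% at E12.5 (SD, n = 2 each). The groups did not overlap, but an exact two-sided permutation test of 2 against 2 libraries cannot give less than p = 0.333, which is the value obtained.

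Single regions were then tested on lengths scaled by the same totals, so their direction is not independent of the shares above. Covered lengths were scaled to the same total per library, 500 bp were added, and log2 values were fitted with limma over the 40099 regions that at least 2 embryonic libraries had. Of the 4035 embryo-only regions, 795 (19.7%) fell at E14.5 and 104 (2.58%) rose, at Benjamini-Hochberg adjusted p under 0.05. Over all regions tested 12.8% fell and 19.2% rose. That background includes regions present at a single stage, and among the 23115 regions with a peak in all 4 embryonic libraries 7.01% fell and 5.98% rose. Of the 12282 regions in all 8 libraries, 905 rose (7.37%) and 255 fell (2.08%), although their median log2 change was −0.11. The difference in balance between these classes was not tested, since regions are not replicates.

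The median log2 change was −0.28 in embryo-only regions, −0.05 over all regions tested and −0.11 in the other regions that all 4 embryonic libraries had. The scaling matters here, because it gives a region of equal covered length in the 4 libraries −0.25 before the 500 bp are added. With the 500 bp the shift is smaller, the more so the shorter the region. Without scaling the median of the embryo-only regions was −0.12. That of all regions was 0.11 and that of the other regions in all 4 embryonic libraries 0.08. Of the embryo-only regions 309 fell (7.66%) and 74 rose (1.83%) without scaling. Over all regions tested 8.13% then fell and 17.2% rose, and of the other regions in all 4 embryonic libraries 0.818% fell and 5.18% rose. The gap between embryo-only and those other regions was −0.17 with scaling and −0.20 without it. With any 1 embryonic library left out, the median log2 change of the embryo-only regions was −0.29 to −0.25. The medians and shares of all regions are not given for those fits.

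The median scaled length of an embryo-only region was 832.7 and 752.9 bp in the E14.5 libraries and 1073 and 1163 bp in the E12.5 libraries, so the stages parted. As deposited it was 961 and 760 bp in the E14.5 libraries and 829 and 1237 bp in the E12.5 libraries, and the stages overlapped. Scaled lengths of a single region did not overlap between the stages, with E14.5 below, in 2283 embryo-only regions (56.6%), against 41.8% of all regions in the 4 embryonic libraries. They did not overlap with E14.5 above in 537 (13.3%), against 20.3%. These shares depend on the scaling. Without it E14.5 lay below in 36.9% of the embryo-only regions and above in 17.8%, against 16.9% below and 32.5% above among all regions in the 4 embryonic libraries.

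**Figure D3:**
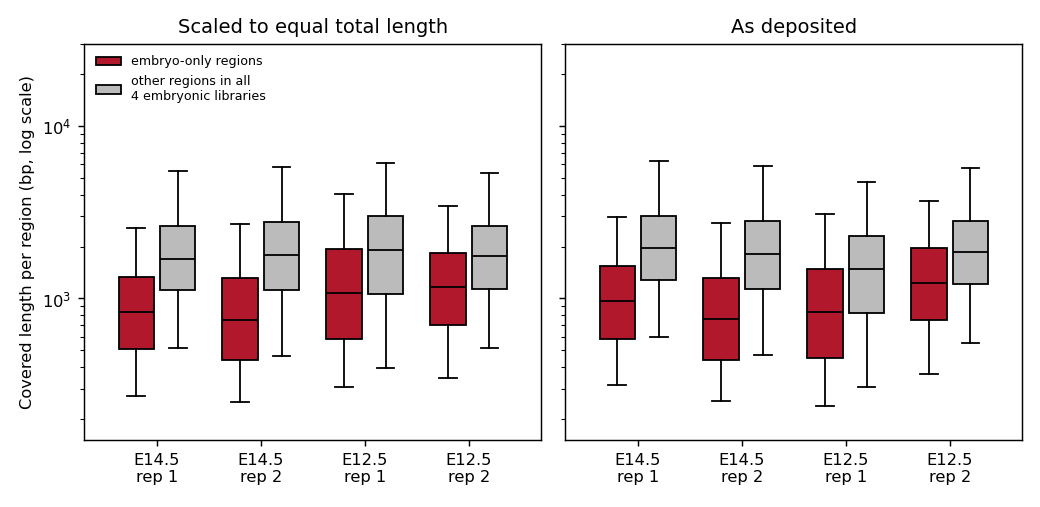
Covered length per region in bp (y axis, log scale) in each embryonic library, for embryo-only regions (red) and other regions with a peak in all 4 embryonic libraries (grey). Boxes span the quartiles with the median as a line and whiskers reach the 5th and 95th percentile. After scaling, the red medians are 832.7 and 752.9 bp at E14.5 and 1073 and 1163 bp at E12.5, while lengths as deposited overlap between the stages.

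The members that fell did so by a median of 0.92 on the log2 scale (their changes had quartiles of −1.21 and −0.70), and 328 of the 795 had a change of −1 or below. The 104 that rose had a median change of 0.84, and 30 of them reached 1. Members that fell had a median length of 2122 bp and those that rose of 1906 bp, both above the 1454 bp of all members. The added 500 bp shrinks log2 changes in short regions, and a region's length is that of all its merged peaks. The part of these in the longer lengths was not tested.

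The largest fall was on chromosome 7 from 6801227 to 6815970. Peaks covered 0.488 and 0.583 kb of it in the E14.5 libraries and 14.0 and 14.7 kb in the E12.5 libraries, a log2 change of −4.04 ± 0.18 (SE, limma adjusted p = 0.0104). Peaks covered most of the region in both E12.5 libraries, which set its ends, and only a small part of it in both E14.5 libraries. At peaks with −log10 q of at least 10, neither this region nor 2 of the 3 named next overlapped an embryo-only region. A neighbour on chromosome 7 from 6749688 to 6755645 had 0.318 and 0.656 kb in the E14.5 libraries and 4.21 and 5.96 kb in the E12.5 libraries (log2 change −2.67 ± 0.23, limma adjusted p = 0.0115).

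On chromosome 13 from 28744950 to 28760607, peaks covered 2.60 and 2.67 kb in the E14.5 libraries and 13.8 and 15.3 kb in the E12.5 libraries (log2 change −2.49 ± 0.15, limma adjusted p = 0.0104). The fourth, on chromosome 15 from 102888862 to 102893361, had 0.780 and 0.301 kb in the E14.5 libraries and 4.43 and 4.48 kb in the E12.5 libraries (log2 change −2.48 ± 0.27, limma adjusted p = 0.0138). These 4 were picked among members past the limma threshold whose stages did not overlap, so that separation is not a finding. Their nearest adult peaks lay 99.6 to 317 kb away.

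The largest rises were smaller in extent. A region on chromosome 16 from 5122693 to 5125945 had 3.25 and 2.51 kb in the E14.5 libraries and 0.294 and 0.872 kb in the E12.5 libraries (log2 change 1.55 ± 0.24, limma adjusted p = 0.0207). One on chromosome 18 from 61031661 to 61034289 had 2.23 and 2.52 kb in the E14.5 libraries and 0.383 and 0.492 kb in the E12.5 libraries (log2 change 1.46 ± 0.15, limma adjusted p = 0.0131), and an adult peak lay only 0.190 kb from it.

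Regions on chromosome 15 (41778902 to 41781254) and chromosome 1 (67045825 to 67048173) had 2.28 and 2.20 kb and 2.35 and 1.81 kb in the E14.5 libraries. In the E12.5 libraries they had 0.346 and 0.529 kb and 0.287 and 0.493 kb. Their log2 changes were 1.41 ± 0.11 and 1.40 ± 0.13, with limma adjusted p of 0.0106 and 0.0122. The 4 rising regions were picked under the same condition as the falls, so the separation of their stages is not a finding. None of the 4 overlapped an embryo-only region at peaks with −log10 q of at least 10.

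**Figure D4:**
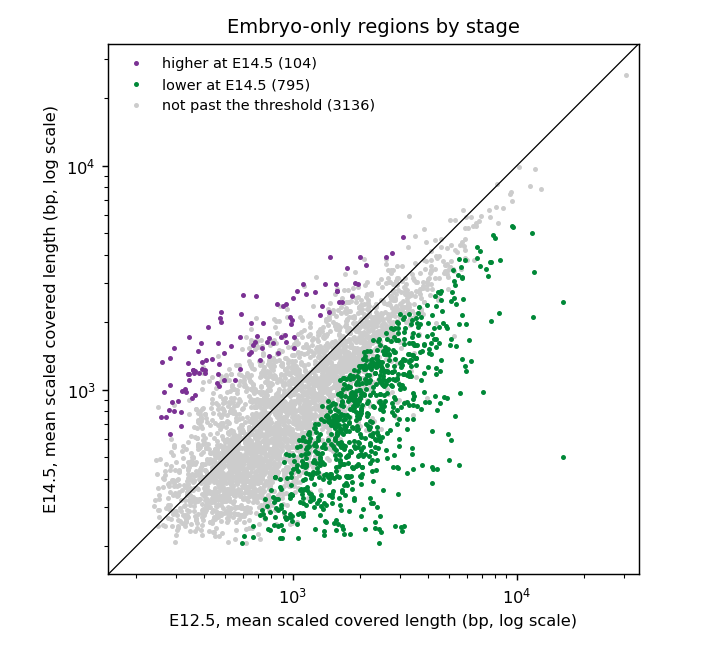
Mean scaled covered length in bp of each embryo-only region at E14.5 (y axis, log scale) and at E12.5 (x axis, log scale), over 2 libraries each, with the line of equal length. Of the 4035 points, 795 fell (green, below the line) and 104 rose (purple, above it) in the limma test.

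Many embryo-only regions lay near another along the chromosomes, as many E12.5-only regions did. When members no more than 50 kb apart were chained, 2099 of them (52.0%) had at least 1 other member in their chain, and 61 chains of 5 or more held 414 members. The same chaining placed 42.5% of the E14.5-only, 52.8% of the E12.5-only and 41.9% of the adult-only regions in chains of more than 1 member. These classes differ in number (2252, 3223 and 1548 regions), which by itself changes how often members are chained. Chains of 5 or more numbered 9 for the E14.5-only, 50 for the E12.5-only and 9 for the adult-only regions. They held 47, 306 and 51 regions. The largest chain had 16 members for the embryo-only regions, 6 for the E14.5-only, 10 for the E12.5-only and 7 for the adult-only regions.

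The chain of 16 spanned 238 kb of chromosome 9, from 42480153 to 42717699. Peaks covered 51.9 and 42.6 kb of this span in the E14.5 libraries and 29.3 and 43.3 kb in the E12.5 libraries. They covered none in ISC replicate 1 or the enterocyte libraries and 1.66 kb in ISC replicate 2. Its longest member (42586874 to 42594251) had 7.21 and 6.95 kb in the E14.5 libraries and 7.24 and 7.29 kb in the E12.5 libraries. Of its 16 members 2 rose and 1 fell at E14.5 in the limma test.

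The next chain, of 14 members, lay on chromosome 7 from 6645002 to 6872993 and held the largest fall named above. Its members had 22.7 and 19.5 kb of peaks in the E14.5 libraries and 63.1 and 71.5 kb in the E12.5 libraries. Of the 14, 11 fell and none rose in the limma test, with a median log2 change of −1.22. The member with the greatest length in its least covering library (6786318 to 6793171) had 4.28 and 3.73 kb in the E14.5 libraries and 6.75 and 6.85 kb in the E12.5 libraries. Adult peaks were missing from the whole span.

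**Figure D5:**
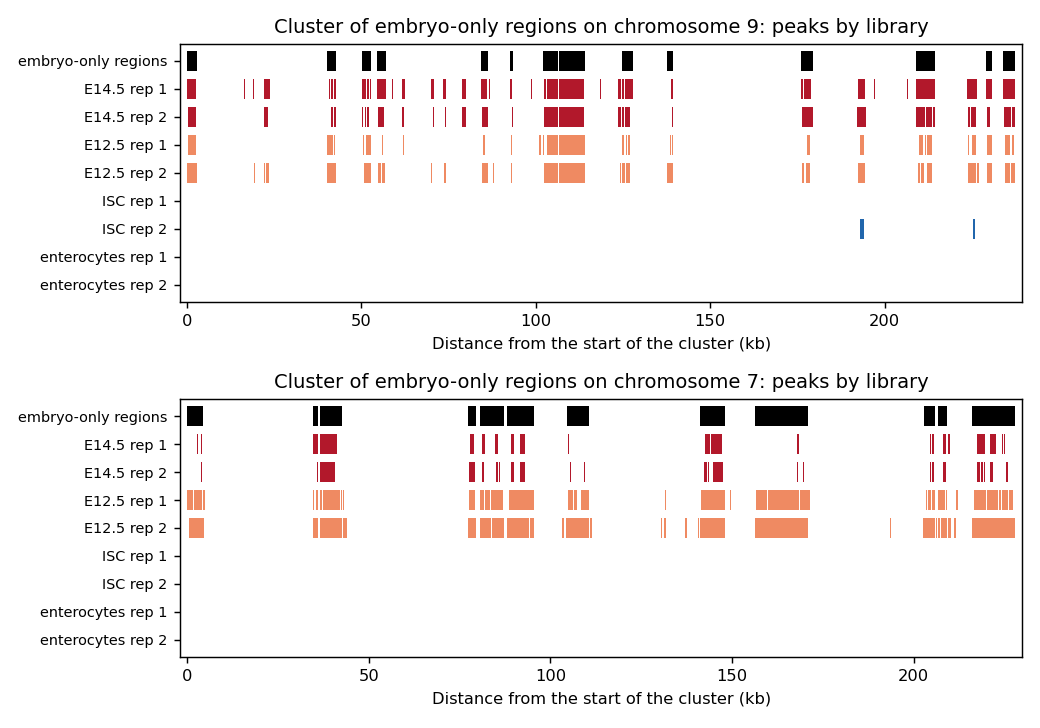
Peaks of each library (coloured bars, 1 row per library) and embryo-only regions (black) along the chains of 16 members on chromosome 9 and of 14 members on chromosome 7, by distance in kb from the start of the chain. Adult rows are empty except for 1.66 kb of ISC replicate 2 peaks on chromosome 9, and on chromosome 7 the E12.5 rows are fuller than the E14.5 rows.

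A chain of 13 on chromosome 7, from 149619025 to 149852598, held the longest region of the set. Peaks covered 90.4 and 82.2 kb of its 234 kb in the E14.5 libraries and 85.0 and 101 kb in the E12.5 libraries, against 0.795 and 1.33 kb in the ISC libraries and 0.979 and 0.761 kb in the enterocyte libraries. A single region of the 32 in the span had adult peaks, and it was present in all 8 libraries. In this chain 2 members fell and none rose at E14.5, with a median log2 change of −0.26. Scaling gives equal lengths −0.25 before the 500 bp are added and a smaller shift after.

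The chain of 13 on chromosome 8 (34994188 to 35201748) was not free of adult peaks, since 7 of its 38 regions had one. Peaks covered 69.4 and 60.7 kb in the E14.5 libraries and 69.4 and 82.0 kb in the E12.5 libraries, against 6.15 and 9.55 kb in the ISC libraries and 5.41 and 4.55 kb in the enterocyte libraries. On chromosome 12 (80741052 to 80909487) a chain of 11 had 41.6 and 34.7 kb in the E14.5 libraries and 38.8 and 55.6 kb in the E12.5 libraries. There ISC kept 9.33 and 10.7 kb and enterocytes 0.348 and 0.732 kb. Its longest member (80866838 to 80872274) had 4.23 and 3.46 kb in the E14.5 libraries and 4.80 and 5.44 kb in the E12.5 libraries (log2 change −0.60 ± 0.12, limma adjusted p = 0.0380, and 0.154 without scaling), a call also lost with either E14.5 replicate left out. Of the 11 members 5 fell and none rose.

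Some stretches of the genome between adult peaks held many members, and those named here were picked after their values were seen. The 14 members of the second chain lay in 0.737 Mb of chromosome 7 (6336485 to 7073137) without any adult peak. On chromosome 12 (110133137 to 111133301), 13 members shared a stretch with 20.4 and 18.3 kb of member peaks in the E14.5 libraries and 17.1 and 21.6 kb in the E12.5 libraries, so the stages overlapped there. On chromosome 17 (67952570 to 69231326), 13 members had 17.9 and 15.4 kb in the E14.5 libraries and 18 and 23.5 kb in the E12.5 libraries. In each of these last 2 stretches 2 members fell and none rose. Stretches with at least 5 members numbered 60 and held 399 members.

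Outside the regions themselves, adult peaks were often near. The nearest peak of any adult library lay a median of 16.1 kb from an embryo-only region, and 1619 members (40.1%) had one within 10 kb. At the other end, 1117 members (27.7%) lay over 50 kb and 412 (10.2%) over 200 kb from any adult peak, up to 4089 kb. The median distance to the nearest ISC peak was 17.4 kb and that to the nearest enterocyte peak 40.7 kb, and the ISC lists are longer. E14.5-only regions lay closer to adult peaks, at a median of 7.68 kb, and E12.5-only regions farther, at 22.6 kb. The nearest region present in all 8 libraries lay a median of 64.2 kb from a member. That distance was 42.6 kb for E14.5-only, 78 kb for E12.5-only and 15.3 kb for adult-only regions.

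The members' calls were also counted by distance from the nearest adult peak. Within 10 kb of an adult peak 53 of 1619 rose (3.27%) and 284 fell (17.5%), between 10 and 50 kb 39 of 1299 rose and 253 fell, and between 50 and 200 kb 8 of 705 rose and 155 fell. Beyond 200 kb 4 of 412 rose (0.971%) and 103 fell (25%). These shares are a description of the members alone: no difference between distances was tested, and other regions were not counted by distance. Median lengths also went down with distance, from 1514 bp within 10 kb to 1330 bp beyond 200 kb.

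A peak lay within 10 kb on either side of 28.7 and 37.9% of the members in the ISC libraries and of 19.5 and 20.9% in the enterocyte libraries. The flanks are outside the regions, so ISC and enterocytes could be compared there with limma, over the flanks of all regions (flanks of neighbouring regions share peaks). Among flanks with a peak in at least 2 adult libraries, 466 of the 1265 members' flanks were higher in ISC and 154 lower, against 29.3% and 20.9% of all flanks tested. A flank can pass that filter through ISC alone, so these counts carry no support for a direction. Among flanks with a peak in all 4 adult libraries, 94 of 635 were higher in ISC (14.8%) and 113 lower (17.8%), against 14.6% and 26.6% of all such flanks. With a peak in at least 2 adult libraries, the median log2 change of the members' flanks, ISC over enterocytes, was 0.47. It was −0.03 and −0.02 without ISC replicate 1 and 2, and 0.47 and 0.64 without enterocyte replicate 1 and 2. With 1 ISC library left a flank cannot pass that filter through ISC alone, so the filter changes with the library.

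Every chromosome but Y held embryo-only regions. As a share of the regions that all 4 embryonic libraries had, they ranged from 12.2% on chromosome 19 and 13.2% on chromosome 11 to 22.1% on chromosome 1 and 23.4% on chromosome 12. The X chromosome held 109, or 18.6% of such regions there, close to the 17.5% of all chromosomes. The longest by the least covering library, from 49982529 to 49988354, had 4.21 and 4.07 kb in the E14.5 libraries and 4.47 and 5.63 kb in the E12.5 libraries (log2 change −0.48 ± 0.10, limma adjusted p = 0.0368, and 0.304 without scaling), a call also lost with either E14.5 replicate or E12.5 replicate 1 left out and, at an adjusted p of 0.0519, with no filter on the number of libraries. The second, from 50143819 to 50146996, had 2.82 kb in each E14.5 library and 3.16 and 3.13 kb in the E12.5 libraries (log2 change −0.35 ± 0.18, limma adjusted p = 0.234).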

How the data were processed

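The submitters' processing notes name the build mm9 and the tools MACS2, SAMtools 1.2, Bowtie 1.1.2 and bcl2fastq 1.8.4. Per the file headers, MACS 2.1.0.20140616 called narrow peaks for each library against its own input at a q-value of 0.05, from 51 bp tags with 1 tag kept per position and the larger library scaled to the smaller. The deposited pileup signal, fold enrichment ratio, and −log10 p and q values are the output of MACS, per the file headers, and were used within each list alone, for ranks and thresholds. Covered lengths come from the deposited positions. Total covered length differed between libraries, and lengths were scaled to equal totals before limma. This lowers every length in a library with a greater total.

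Regions, covered lengths and distances were computed in Python 3.11.15, and tests in R 4.3.3 with limma 3.58.1 (lmFit, then eBayes with trend and robust, Benjamini-Hochberg over all regions), on the 4 embryonic or the 4 adult libraries alone. The scripts were tested on simulated data. Regions were named by rule: the 8 longest by the least covering embryonic library, the 4 largest rises and falls, the 5 chains with most members and the longest member of each, the 2 longest on X, and those at the edge of the rule. The rises and falls were taken among members past the limma threshold whose scaled lengths did not overlap between the stages. The members and rules were chosen with earlier results of these data known. The input libraries enter only through the peak calls. Gene lists planned for an annotation on mm9 were not used.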

Additional observations from a re-analysis of the deposited data

How the results depend on the processing

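The number of embryo-only regions was 1816 with peaks of −log10 q of at least 10, 2920 when each list was shortened to the same number of peaks, 3260 with merging within 1 kb and 2978 with 50% cover as presence. Leaving out 1 library gave 4061 to 5550, the highest without ISC replicate 2. The regions are not all the same: of the 4035, 1128 overlapped an embryo-only region at the stricter q and 2281 at equal peak numbers.

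Between the stages, falls outnumbered rises under every setting run. Without scaling 309 members fell (7.66%) and 74 rose (1.83%), against 8.13% and 17.2% of all regions tested. Among regions with a peak in all 4 embryonic libraries 1250 members fell (31%) and 187 rose (4.63%), against 11.4% and 9.07% of all such regions. The counts that fell and rose were 1299 and 192 with all 8 libraries in the fit, and 284 and 13 at the stricter q. Shares over all regions are not given for these last settings. With a library left out, 573 to 1318 fell and 61 to 373 rose. The median log2 change was −0.39 and −0.13 with 100 and 2000 bp added, −0.12 without scaling and −0.36 at the stricter q, and with a library left out −0.29 to −0.25. With the replicate number as a block, 794 fell and 101 rose, and the longest region on X had an adjusted p of 0.0988. The labels give a shared number and no shared animal. Deviations of same-numbered libraries correlated at −0.13 across regions (−0.16 for the adult flanks). With 2 libraries in a group this compares a single difference per group, so it cannot decide whether the numbers pair the libraries.

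All flank counts here, but those with a peak in all 4 adult libraries, used the filter of a peak in at least 2. A flank can pass it through ISC alone, so they carry no support for a direction. Over all flanks in the main fit 29.3% were higher in ISC and 20.9% lower, and such shares are not given for the other settings. Of the members' flanks, 281 were higher and 85 lower in ISC at 5 kb and 748 and 267 at 25 kb. Without scaling 485 were higher and 54 lower, with a median of 0.84. With a peak in all 4 adult libraries, a filter added after seeing the data, 94 were higher and 113 lower, with a median of −0.07. With a library left out, 18 to 442 were higher and 57 to 131 lower, with medians from −0.03 to 0.64. The block gave 488 higher and 144 lower. An arm left with 1 library is taken to vary like the other group. Of 266 values for the 21 named regions with a test, 238 kept their side of the threshold, 9 lost a call and 19 gained one. These values leave out regions absent under a setting: 14 of the 21 overlapped an embryo-only region at the stricter q, 14 at equal peak numbers and 13 at 50% cover. At the stricter q all 4 named rises and 3 of the 4 named falls, the largest included, dropped out. The cause of these differences was not tested. The scaling by regions in all 8 libraries was also added after seeing the data.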
